A study of Mus musculus with 6 samples.

Results

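The genes described here are 30 genes of sterol and fatty acid synthesis, with their main regulators and the sterol efflux pumps, taken as a named list with no threshold on a value. Of these, 29 were found among the 33924 genes of the count table and all 29 had enough reads to be tested, while the counts of Hmgcs1 were not analysed here. RNA was sequenced from 4 libraries of Mll-Af4/ N-RasG12D leukemia cells of mouse bone marrow, a model of acute lymphoblastic leukemia, and from 2 libraries of wildtype pro-B cells, sorted from marrow as B220+CD43+IgM-. The leukemia libraries carry 2 leukemia numbers, leukemia 92 and leukemia 1, with 2 replicates each. Marrow of Mll-Af4 mice aged 6 to 8 weeks, depleted of lineage cells and sorted for c-Kit+ and Sca1+, was cultured overnight with IL7 and other cytokines, infected with a Cre retrovirus that carries TdTomato, sorted, and infected with a second retrovirus that carries N-RasG12D. Recipients irradiated with 900 rads received 250000 such cells and 200000 wildtype helper marrow cells, so blood cells of the helper marrow or of the host can remain in leukemic marrow. The pro-B cells carried neither virus, so fusion, Ras mutation, viral insertion and transplantation differ together between leukemia and pro-B cells. Nothing in the labels says that replicates are separate animals, and p-values that rest on libraries of 1 group may then measure only technical spread. Where the libraries of each leukemia are summed, the leukemia side has the spread between 2 leukemias, and the pro-B side that between 2 libraries.

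Cholesterol is built from acetyl-CoA through mevalonate, farnesyl diphosphate, squalene and lanosterol, and the same pathway supplies the lipid anchors that RAS proteins carry. When sterols are low, SCAP escorts the SREBP transcription factors from the endoplasmic reticulum to the Golgi, where they are cut and released to switch on sterol and fatty acid genes. INSIG proteins hold SCAP back when sterols are high, and the LXR receptors then switch on the pumps that export cholesterol.

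Gene counts summed to 22153444 to 27444759 per library. Levels are given as CPM, the count of a gene relative to the TMM-scaled size of its library, and are not divided by gene length, so they compare libraries and not genes. The summed CPM of 11 pro-B markers were 3978 and 4265 in leukemia 92, 4018 and 5606 in leukemia 1, and 5043 and 4159 in pro-B cells. These sums held genes that went opposite ways: edgeR called Cd79a higher and Dntt and Rag2 lower in leukemia, and 8 did not pass. Dntt, which adds bases at the joints of rearranging antibody genes, was at 0.0411 and 0 CPM in leukemia 92, at 0.244 and 1.11 CPM in leukemia 1, and at 969 and 604 CPM in pro-B cells. Rag1, which cuts those genes, did not pass, at 10.4 to 73.0 CPM in leukemia and 360 and 319 CPM in pro-B cells (edgeR adjusted p = 0.056). The 2 libraries of leukemia 1 stood far apart: the log2 differences between them had an SD of 1.1, against 0.258 in leukemia 92 and 0.255 in pro-B cells. Replicate 2 of leukemia 1 held 16308 CPM of 12 granulocyte markers, against 179 CPM in replicate 1, 784 and 445 CPM in leukemia 92, and 422 and 448 CPM in pro-B cells. Results that rest on 1 of these libraries are therefore given with and without it, and the part that other cells had in them was not tested. In such bulk RNA, fewer cells of a type and less RNA per cell cannot be told apart.

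Between leukemia and pro-B cells, farnesyl diphosphate synthase Fdps, the sterol carrier Stard4 and the desaturase Scd1 rose, while the fatty acid elongase Elovl6 and both efflux pumps, Abca1 and Abcg1, fell. These are 3 of 29 genes called higher, against 9.54% of the 15280 genes tested, and 3 of 29 called lower, against 10.7%, so the share called was near that of all genes in both directions. The comparison used edgeR's quasi-likelihood test on counts summed within each leukemia, and a gene was called where its p, adjusted by Benjamini and Hochberg over all genes tested, was under 0.05. The other 23 genes did not pass. The median log2 change of the 29 genes was 0.26, against 0.02 for all genes tested, with 18 above 0 and 11 below 0. At an unadjusted p under 0.05, 10 of the 29 were higher, against 19.6% of all genes, and 3 were lower, against 19.2%.

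**Figure D1:**
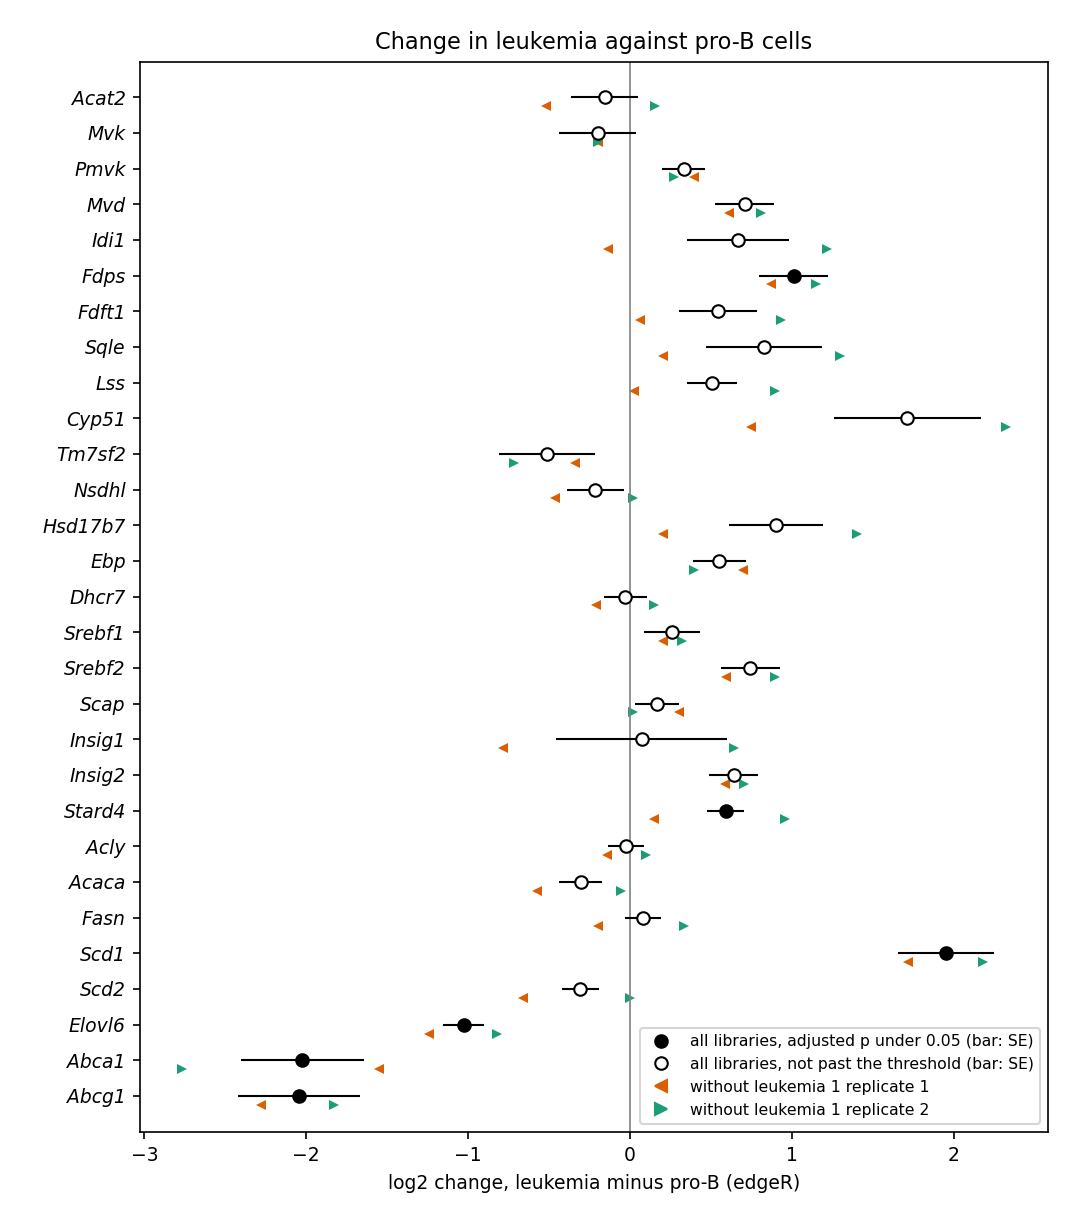
Log2 change of each of the 29 genes in leukemia against pro-B cells (x axis), with the SE as a bar and filled points for genes past the adjusted p of 0.05. Triangles give the change without replicate 1 or without replicate 2 of leukemia 1: Scd1 stays near 2 under both, while Cyp51 lies at 0.75 without replicate 1 and at 2.33 without replicate 2.

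The count depended on which libraries entered. Without replicate 1 of leukemia 1, Scd1 alone was called higher, against 6.39% of all genes, and Abcg1, Elovl6 and Insig1 were called lower, against 6.99%, with a median log2 change of 0.02 for the 29 genes. Without replicate 2 of leukemia 1, Fdps, Scd1 and Srebf2 were called higher, against 6.89% of all genes, and Abca1 was called lower, against 12%, with a median of 0.34. DESeq2 called 8 of the 29 genes higher, against 15.3% of all genes. It added the decarboxylase Mvd, Cyp51, Hsd17b7, Srebf2 and Insig2 to the 3 of edgeR, and called the same 3 genes lower, against 15.9%. Leaving out either pro-B library leaves that group with 1 library, and edgeR then called no gene of the table in either direction. Before adjustment, 1185 genes were higher and 1460 lower at p under 0.05 without replicate 1, and 1231 and 1419 without replicate 2.

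Of the 8 genes that lead from acetyl-CoA to squalene epoxide, 1 rose and none fell, against 9.54% and 10.7% of all genes. The other 7 did not pass, and the median log2 change of the 8 was 0.61. Fdps, which joins isoprene units into farnesyl diphosphate, stood at 148 and 130.3 CPM in leukemia 92, at 130.6 and 78.9 CPM in leukemia 1, and at 60.1 and 61.8 CPM in pro-B cells. All 4 leukemia libraries lay above both pro-B libraries, and replicate 2 of leukemia 1 was the lowest of the 4. Fdps averaged 122 ± 29.9 CPM over the leukemia libraries (SD, n = 4) and 61.0 ± 1.18 CPM over the pro-B libraries (SD, n = 2), a log2 change of 1.01 (SE 0.21, edgeR adjusted p = 0.047). The call was lost without replicate 1 of leukemia 1 (log2 change 0.87, edgeR adjusted p = 0.156). It was also lost without replicate 2 of leukemia 92 (log2 change 1.06, edgeR adjusted p = 0.052). Leaving out both libraries of leukemia 1 or of leukemia 92 left 1 leukemia sum, with log2 changes of 1.22 and 0.73. In the reference annotation, 26.2% of the 50-base words of Fdps also occur in other genes, chiefly the overlapping Gm43738, so part of its count could have gone elsewhere.

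Mvd, the mevalonate diphosphate decarboxylase, and Pmvk, the kinase before it, also had all 4 leukemia libraries above both pro-B libraries, but did not pass. Mvd stood at 21.1 and 18.5 CPM in leukemia 92, at 23.1 and 16.9 CPM in leukemia 1, and at 11.6 and 12.9 CPM in pro-B cells (log2 change 0.71, SE 0.18, edgeR adjusted p = 0.067). Pmvk had a log2 change of 0.33 (SE 0.13, edgeR adjusted p = 0.157), and Mvk, the first kinase of the chain, one of -0.20 (SE 0.24, edgeR adjusted p = 0.582). Mvk and Pmvk were also the 2 genes of this stretch in which the leukemia 1 libraries were closest, at 10.4 and 10.2 CPM for Mvk and 32.6 and 37.3 CPM for Pmvk.

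The other 4 genes of this stretch were highest in 1 library. Sqle, the squalene epoxidase, which is a rate-limiting step, stood at 89.5 and 70.2 CPM in leukemia 92, at 262 and 75.4 CPM in leukemia 1, and at 72.8 and 64.7 CPM in pro-B cells. Idi1, the isopentenyl diphosphate isomerase, stood at 17.1 and 14.9 CPM in leukemia 92, at 50.8 and 9.27 CPM in leukemia 1, and at 14.03 and 14.3 CPM in pro-B cells. Fdft1, the squalene synthase, stood at 42.5 and 36.1 CPM in leukemia 92, at 96.4 and 32.7 CPM in leukemia 1, and at 36.1 and 34.2 CPM in pro-B cells. In all of them replicate 1 of leukemia 1 was the highest library and the other 3 leukemia libraries overlapped with pro-B cells. Their log2 changes were 0.83, 0.67 and 0.54 with all libraries, and 0.20, -0.14 and 0.06 without that replicate, none past the threshold in either fit. Acat2, the cytosolic thiolase that starts the chain, was likewise highest in that library, at 38.2 CPM against 16.1 to 20.4 CPM in the other leukemia libraries and 25.0 and 25.5 CPM in pro-B cells. Shared 50-base words made up 39.1% of Acat2, 26.5% of Fdft1 and 25.3% of Idi1, so the reads of these genes may be split with related or overlapping genes.

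Of the 7 genes from squalene epoxide to cholesterol, edgeR called none in either direction. Before adjustment at p under 0.05, 4 were higher and none lower, against 19.6% and 19.2% of all genes. DESeq2 called Cyp51 and Hsd17b7 higher, against 15.3% of all genes. Cyp51, the lanosterol demethylase, had the largest log2 change of these 7 genes. It stood at 129.9 and 105 CPM in leukemia 92, at 518 and 87.7 CPM in leukemia 1, and at 63.3 and 61.3 CPM in pro-B cells. All 4 leukemia libraries were above both pro-B libraries, with replicate 1 of leukemia 1 far above the other 3. The log2 change was 1.71 (SE 0.45, edgeR adjusted p = 0.073), and 0.75 without that replicate (edgeR adjusted p = 0.090). With 1 leukemia sum left, the change was 0.95 for leukemia 92 and 2.19 for leukemia 1.

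Hsd17b7, a ketoreductase that acts with Nsdhl in removing methyl groups from sterols, stood at 33.1 and 29.6 CPM in leukemia 92, at 93.2 and 21.0 CPM in leukemia 1, and at 23.8 and 22.6 CPM in pro-B cells. Lss, the lanosterol synthase, stood at 41.8 and 33.7 CPM in leukemia 92, at 58.1 and 13.1 CPM in leukemia 1, and at 26.5 and 24.8 CPM in pro-B cells. In both genes leukemia 92 and replicate 1 of leukemia 1 were above pro-B cells and replicate 2 of leukemia 1 was below them. Their log2 changes of 0.90 (SE 0.29, edgeR adjusted p = 0.104) and 0.51 (SE 0.15, edgeR adjusted p = 0.091) became 0.20 and 0.02 without replicate 1 of leukemia 1. Ebp, the sterol isomerase, was the exception in which replicate 2 of leukemia 1 was highest, at 47.3 and 48.9 CPM in leukemia 92, at 52.2 and 74.0 CPM in leukemia 1, and at 37.1 and 39.1 CPM in pro-B cells (log2 change 0.55, SE 0.16, edgeR adjusted p = 0.088).

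The 3 remaining enzymes of that stretch had log2 changes below 0 and did not pass. Tm7sf2, a sterol reductase, was lower in all 4 leukemia libraries, at 4.39 to 9.25 CPM against 11.7 and 10.1 CPM in pro-B cells (log2 change -0.51, SE 0.30, edgeR adjusted p = 0.28). Of its 50-base words, 9.87% occur in the overlapping Vps51. Nsdhl and the terminal reductase Dhcr7 had log2 changes of -0.21 and -0.03, and both turned above 0 without replicate 2 of leukemia 1, at 0.02 and 0.15.

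Of the SREBP genes and their regulators, edgeR called none of 5. Before adjustment at p under 0.05, 2 were higher and none lower, against 19.6% and 19.2% of all genes. DESeq2 called these 2, Srebf2 and Insig2, higher, against 15.3% of all genes. Srebf2 encodes the SREBP that chiefly drives sterol genes. It stood at 365 and 318 CPM in leukemia 92, at 357 and 216 CPM in leukemia 1, and at 175 and 202 CPM in pro-B cells. All leukemia libraries were above both pro-B libraries, with replicate 2 of leukemia 1 only just so. The log2 change was 0.74 (SE 0.18, edgeR adjusted p = 0.062). Srebf2 was called without replicate 2 of leukemia 1 (log2 change 0.89, edgeR adjusted p = 0.030) and without replicate 1 of leukemia 92 (log2 change 0.68, edgeR adjusted p = 0.049). It was not called without replicate 1 of leukemia 1 (log2 change 0.59, edgeR adjusted p = 0.234). Insig2 was even among the leukemia libraries, at 24.3 and 24.8 CPM in leukemia 92, at 30.1 and 25.0 CPM in leukemia 1, and at 16.9 and 16.6 CPM in pro-B cells (log2 change 0.64, SE 0.15, edgeR adjusted p = 0.057).

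Insig1, the INSIG gene that is itself an SREBP target, was below pro-B cells in 3 of 4 leukemia libraries. It stood at 64.7 and 51.6 CPM in leukemia 92, at 292 and 67.3 CPM in leukemia 1, and at 106 and 114 CPM in pro-B cells. Replicate 1 of leukemia 1 was above both pro-B libraries and the other 3 leukemia libraries were below them. The log2 change was 0.07 with all libraries (SE 0.53, edgeR adjusted p = 0.934) and -0.78 without that replicate (edgeR adjusted p = 0.045), where Insig1 was called lower. It was -0.88 with the leukemia 92 sum alone and 0.63 with the leukemia 1 sum alone. Srebf1, which encodes the SREBP tied more to fatty acid genes, and Scap had log2 changes of 0.26 (SE 0.17, edgeR adjusted p = 0.333) and 0.17 (SE 0.14, edgeR adjusted p = 0.426).

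Stard4, a soluble protein that moves sterols between membranes and a known SREBP target, stood at 97.9 and 86.8 CPM in leukemia 92, at 165 and 50.5 CPM in leukemia 1, and at 66.0 and 65.7 CPM in pro-B cells. The groups overlapped, since replicate 2 of leukemia 1 was below both pro-B libraries. The log2 change of 0.59 (SE 0.11, edgeR adjusted p = 0.039) rested on the sum of the unlike leukemia 1 libraries. It was 0.15 without replicate 1 of leukemia 1 (edgeR adjusted p = 0.794), 0.96 without replicate 2 of leukemia 1 (edgeR adjusted p = 0.108) and 0.54 without replicate 1 of leukemia 92 (edgeR adjusted p = 0.054). Fitting the 6 libraries as 3 groups gave 0.60 (edgeR adjusted p = 0.396).

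Of the 6 fatty acid enzymes, Scd1 rose and Elovl6 fell, against 9.54% and 10.7% of all genes, and 4 did not pass. Scd1, which makes monounsaturated fatty acids, stood at 124 and 115 CPM in leukemia 92, at 269 and 155 CPM in leukemia 1, and at 39.5 and 45.4 CPM in pro-B cells. All leukemia libraries were well above both pro-B libraries. Scd1 averaged 166 ± 70.9 CPM over the leukemia libraries (SD, n = 4) and 42.4 ± 4.18 CPM over the pro-B libraries (SD, n = 2), a log2 change of 1.95 (SE 0.29, edgeR adjusted p = 0.026). Its change lay between 1.72 and 2.18 when each library was left out in turn. The call was kept when any leukemia library was left out and lost without either pro-B library. The change was 1.52 with the leukemia 92 sum alone and 2.27 with the leukemia 1 sum alone.

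The close paralog Scd2 did not move with Scd1. It stood at 235 and 120.4 CPM in leukemia 92, at 291 and 110.1 CPM in leukemia 1, and at 241 and 227 CPM in pro-B cells. Replicate 2 was the lower library in both leukemias, and the groups overlapped (log2 change -0.31, SE 0.11, edgeR adjusted p = 0.134). Scd1 and Scd2 share 50-base words with each other or with Scd3 and Scd4 over 4.56% and 3.97% of their sequence, so a small part of their reads is uncertain.

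Elovl6, which lengthens saturated and monounsaturated fatty acids, stood at 75.0 and 55.6 CPM in leukemia 92, at 98.2 and 53.9 CPM in leukemia 1, and at 150.4 and 138 CPM in pro-B cells. Every leukemia library was below both pro-B libraries. Elovl6 averaged 70.7 ± 20.7 CPM over the leukemia libraries (SD, n = 4) and 144 ± 8.83 CPM over the pro-B libraries (SD, n = 2), and its log2 change was -1.03 (SE 0.12, edgeR adjusted p = 0.018). Without replicate 2 of leukemia 1 the log2 change was -0.82 and the call was lost (edgeR adjusted p = 0.084).

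The enzymes that supply the carbon chain differed by less than the spread between leukemia libraries. Acly, which cuts citrate into acetyl-CoA, stood at 349 and 326 CPM in leukemia 92, at 404 and 279.7 CPM in leukemia 1, and at 339 and 353 CPM in pro-B cells (log2 change -0.02, SE 0.11, edgeR adjusted p = 0.893). Fasn, the fatty acid synthase, had a log2 change of 0.08 (SE 0.11, edgeR adjusted p = 0.631), with 186 CPM in replicate 1 of leukemia 1 and 84.1 CPM in replicate 2, against 126 and 123 CPM in pro-B cells. Acaca, the acetyl-CoA carboxylase that makes malonyl-CoA, had one of -0.31 (SE 0.13, edgeR adjusted p = 0.172), and 30.4% of its 50-base words occur in other genes, among them Gm5182.

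Both efflux pumps fell. Abca1, which passes cholesterol to apolipoprotein A-I, stood at 3.12 and 2.66 CPM in leukemia 92, at 2.11 and 8.79 CPM in leukemia 1, and at 17.8 and 16.8 CPM in pro-B cells. Abcg1, which passes it to high-density lipoprotein, stood at 8.75 and 3.97 CPM in leukemia 92, at 17.0 and 10.3 CPM in leukemia 1, and at 42.4 and 39.9 CPM in pro-B cells. Every leukemia library was below both pro-B libraries for both pumps. The log2 change was -2.02 for Abca1 (SE 0.38, edgeR adjusted p = 0.038) and -2.05 for Abcg1 (SE 0.38, edgeR adjusted p = 0.037), which is 4.07-fold and 4.13-fold lower in leukemia.

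Abca1 was the one gene of the 29 at least 2-fold lower in replicate 1 than in replicate 2 of leukemia 1. Its call was lost without replicate 1 (log2 change -1.55, edgeR adjusted p = 0.162) and kept without replicate 2 (log2 change -2.77, edgeR adjusted p = 0.018). Abcg1 lost its call without replicate 2 of leukemia 1 (log2 change -1.83, edgeR adjusted p = 0.081) or without replicate 1 of leukemia 92 (log2 change -2.24, edgeR adjusted p = 0.071). Replicate 2 of leukemia 1, the higher of the pair for Abca1, was also the library with the granulocyte markers. The 10 monocyte and macrophage markers summed to 2530 and 2035 CPM in leukemia 92, where Abca1 was at 3.12 and 2.66 CPM, to 543 and 2821 CPM in leukemia 1, and to 459 and 470 CPM in pro-B cells. The part of granulocytes, monocytes or macrophages in the Abca1 values was not tested.

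**Figure D2:**
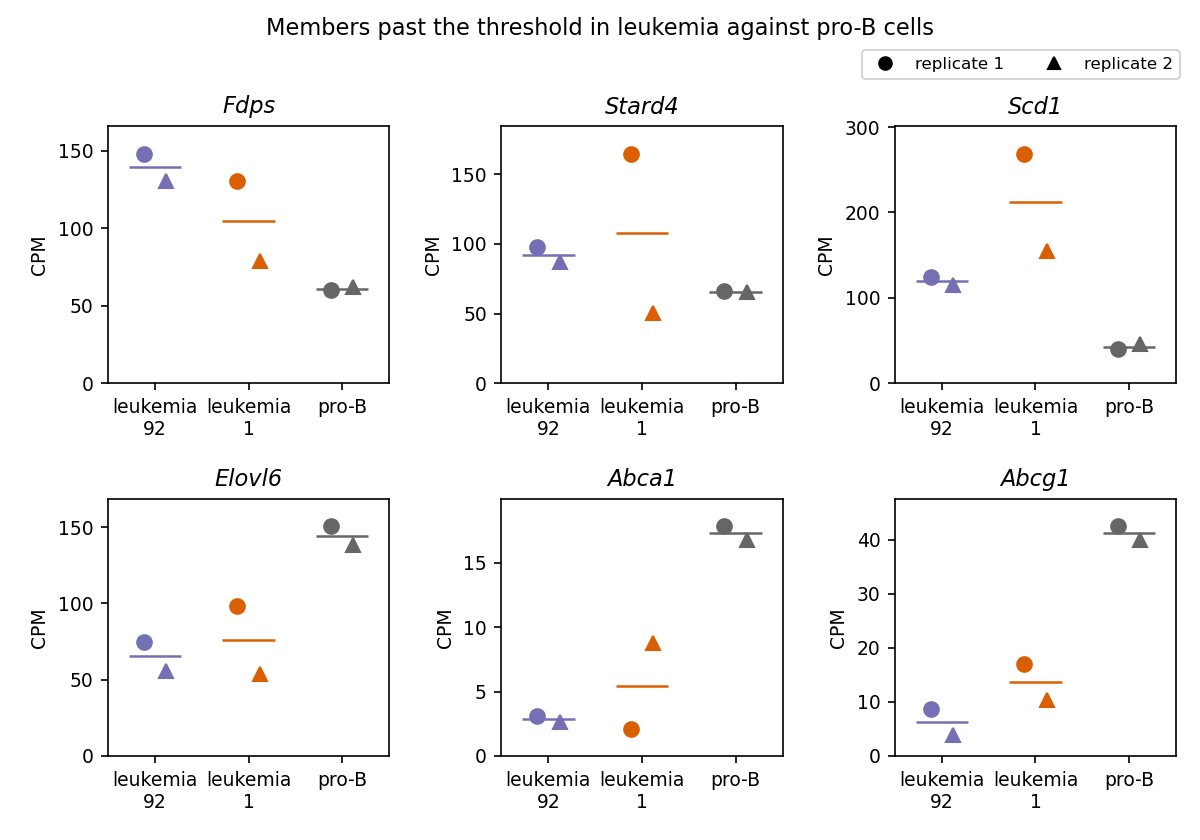
CPM of the 6 genes past the threshold, in leukemia 92, leukemia 1 and pro-B cells (x axis), with circles for replicate 1, triangles for replicate 2 and lines for group means. All leukemia points lie to one side of the pro-B points except for Stard4, where replicate 2 of leukemia 1 (50.5 CPM) is below pro-B cells.

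Across the 29 genes, all 4 leukemia libraries lay above both pro-B libraries for 8, against 23.4% of all genes tested, and below for 4, against 27.3%. The 8 were Pmvk, Mvd, Fdps, Cyp51, Ebp, Srebf2, Insig2 and Scd1, and the 4 were Tm7sf2, Elovl6, Abca1 and Abcg1. The other 17 genes overlapped between the groups.

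Many of these genes also differed between the 2 libraries of leukemia 1. Replicate 1 of leukemia 1 was the highest of the 6 libraries for 18 of the 29 genes, while that library was highest for 23.5% of all genes tested. It was at least 2-fold above replicate 2 for 12 of the 29, against 8.31% of all genes, and at least 2-fold below it for 1, Abca1, against 12.4%. The median log2 ratio of replicate 1 to replicate 2 (with 0.5 added to each CPM) was 0.79 for the 29 genes and -0.06 for all genes tested. In leukemia 92 and in pro-B cells the same median was 0.18 and 0.02, against 0 and -0.008 for all genes tested. There 28 of 29 and 29 of 29 genes were within 2-fold between replicates, the exception being Abcg1 in leukemia 92. Of all 15280 genes tested, 15182 and 15201 were. Apart from Abca1 and Insig2, the log2 ratio of each of the 29 genes had the same sign in both leukemias, mostly smaller in leukemia 92. With 2 unlike libraries under 1 leukemia number there is no replicate of either, so these counts are a description of those libraries and carry no test.

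**Figure D3:**
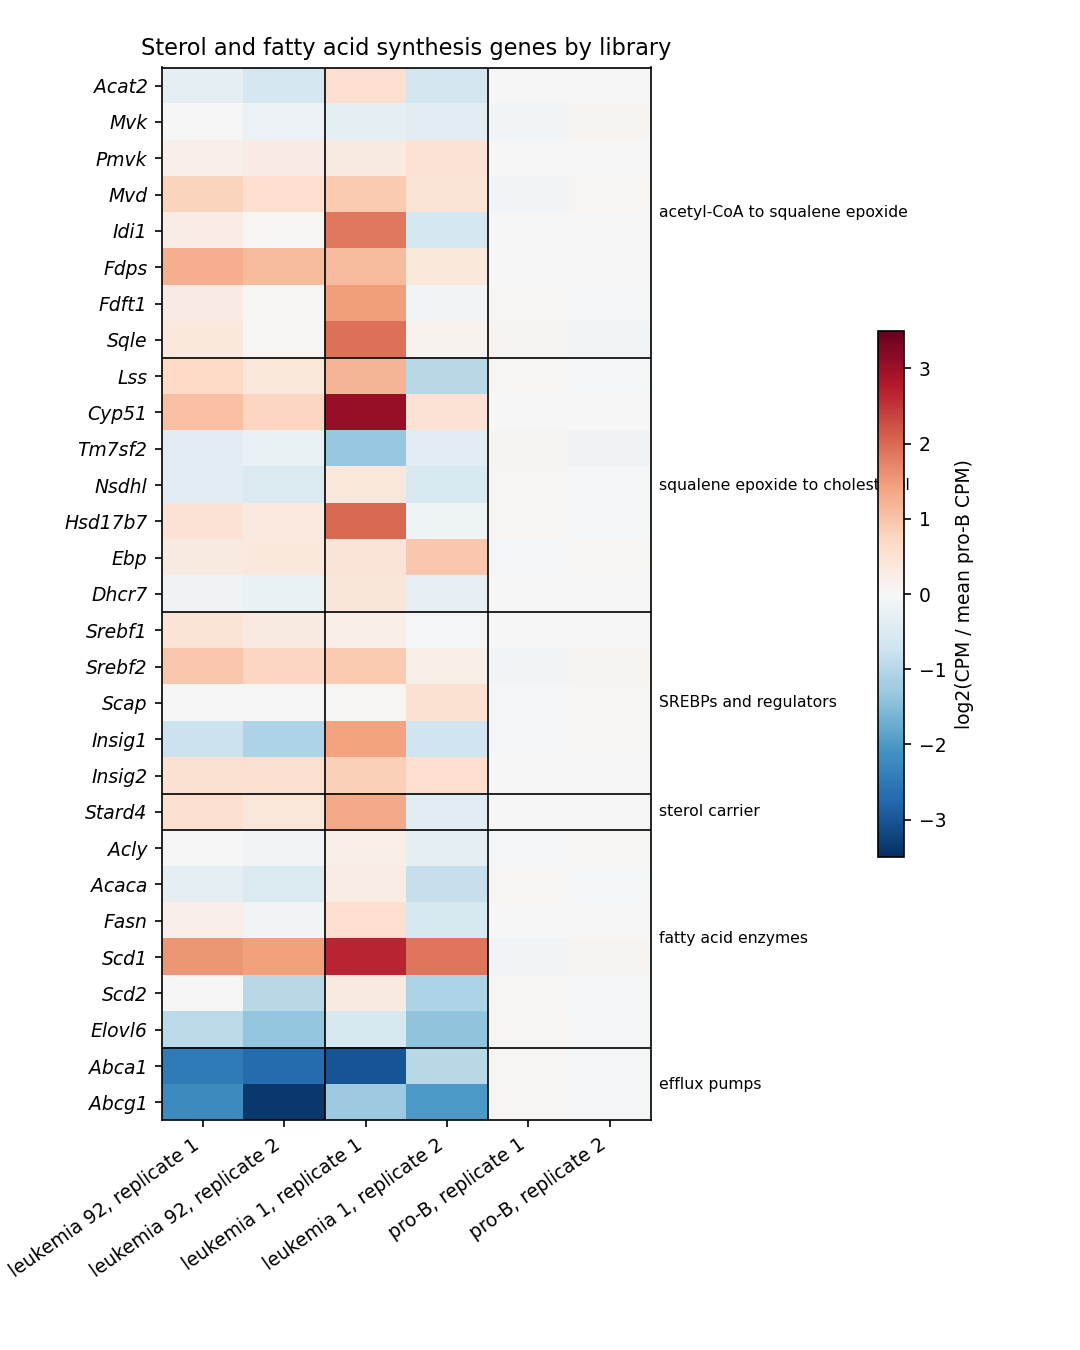
Level of each of the 29 genes in each library as log2 of its CPM over the mean pro-B CPM (color), grouped by role, with leukemia 92, leukemia 1 and pro-B libraries as columns. Replicate 1 of leukemia 1 is the reddest column for 18 of the 29 genes, from Cyp51 (518 CPM) to Insig1 (292 CPM), and the efflux pumps are blue in all 4 leukemia libraries.

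The size of that difference varied among the genes. The ratio of replicate 1 to replicate 2 was 5.91 for Cyp51, 5.48 for Idi1, 4.44 for both Lss and Hsd17b7, 4.33 for Insig1, 3.48 for Sqle, 3.27 for Stard4 and 2.95 for Fdft1. These 8 genes span the isoprenoid, squalene and lanosterol steps, 1 INSIG gene and the sterol carrier. Acat2 (2.38), Scd2 (2.64), Fasn (2.22) and Acaca (2.08) completed the 12, so 3 of the 6 fatty acid enzymes were among them. The ratio was 0.874 for Pmvk, 0.706 for Ebp, 0.713 for Scap, 0.530 for Tm7sf2 and 0.240 for Abca1, the 5 genes that were lower in replicate 1. By role, the median log2 ratio was 0.97 for the first 8 enzymes, 0.91 for the 7 from squalene epoxide on, 0.95 for the 6 fatty acid enzymes, 0.30 for the SREBP genes and their regulators, and -0.56 for the 2 pumps.

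**Figure D4:**
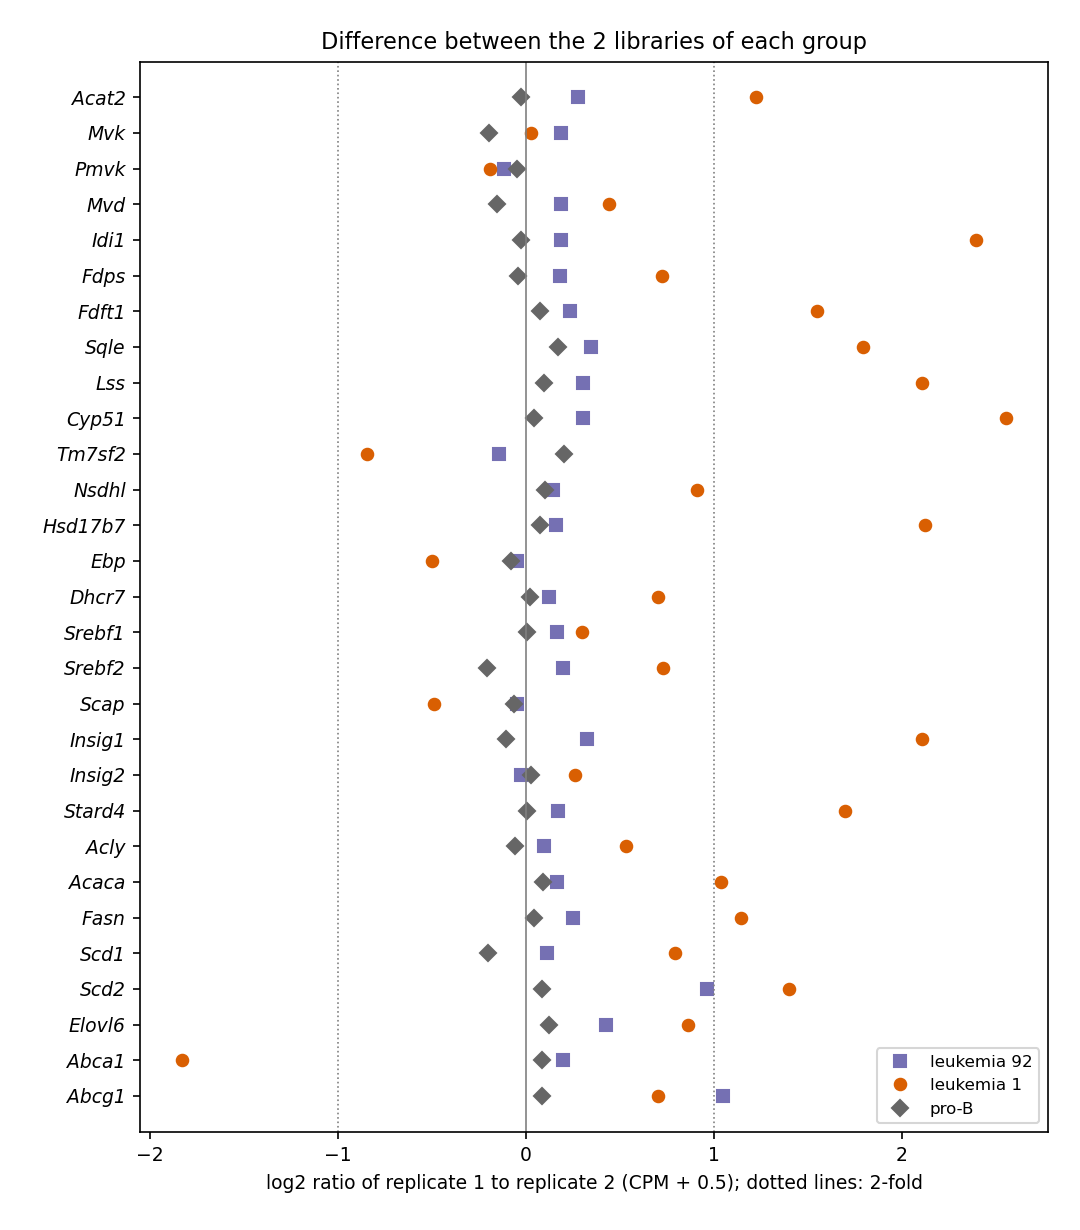
Log2 ratio of replicate 1 to replicate 2 for each of the 29 genes (x axis) in leukemia 92, leukemia 1 and pro-B cells. The pro-B and most leukemia 92 points sit near 0, while in leukemia 1 12 genes lie beyond the 2-fold line to the right and Abca1 beyond it to the left.

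Of the 79 further lipid genes tested, 15 were at least 2-fold higher in replicate 1 than in replicate 2 of leukemia 1, against 8.31% of all genes, and 9 at least 2-fold lower, against 12.4%, with a median log2 ratio of 0.07. The lists differed. Of 8 further sterol synthesis genes listed, 5 were at least 2-fold higher in replicate 1 than in replicate 2 of leukemia 1, with a median log2 ratio of 1.31. Among them were Ggps1, Msmo1 and Sc5d, of which Msmo1 and Sc5d are named after their values were seen. Of 26 further fatty acid and glycerolipid genes 7 were 2-fold higher and 4 lower (median 0.17), of 13 sterol transport genes 2 were higher and 1 lower (median 0.13), and of 10 genes of the SREBP machinery 1 was higher and none lower (median 0.22). Of 13 fatty acid oxidation genes none was higher and 1 lower (median -0.22), and of 9 LXR and efflux genes none was higher and 3 lower (median -0.71). The leukemia 1 libraries also differed in 11 cell cycle markers by little, at 3118 and 3381 CPM, against 1914 and 2036 CPM in leukemia 92 and 5326 and 5191 CPM in pro-B cells.

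Because many of these genes differed together between the leukemia 1 libraries, their promoters were searched in RefSeq's window of 250 bases before to 50 bases after each start (build GRCm38.p6), on both strands. Of the 30 genes, 23 had a window in the table. The sterol response element TCACNCCAC occurred in 1 of the 23, Hmgcs1, and in 1.44% of all 27025 genes with a window. Its shorter core TCACNCCA, which lies within it, occurred in 2, Hmgcs1 and Srebf2, and in 4.97% of all genes. The CCAAT box, bound by NF-Y, a known partner of the SREBPs, occurred in 18 of the 23 windows (78.3%) and in 41.1% of all genes. The bases before the start are printed for the 5 genes with the largest ratio between the leukemia 1 libraries that have 1 window each, chosen after their values were seen, and for Srebf2, which holds the short element, with the CCAAT box (ATTGG on the other strand) and the element in capitals. Each runs 5′ to 3′ along its gene.
Cyp51 (chr5:4104698-4104817, minus strand): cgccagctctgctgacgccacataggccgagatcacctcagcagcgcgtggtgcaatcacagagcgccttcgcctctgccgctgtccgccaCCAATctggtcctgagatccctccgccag
Idi1 (chr13:8885486-8885605, plus strand): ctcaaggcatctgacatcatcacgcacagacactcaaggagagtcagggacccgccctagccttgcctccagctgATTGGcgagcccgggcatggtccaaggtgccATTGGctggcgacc
Hsd17b7 (chr1:169969206-169969325, minus strand): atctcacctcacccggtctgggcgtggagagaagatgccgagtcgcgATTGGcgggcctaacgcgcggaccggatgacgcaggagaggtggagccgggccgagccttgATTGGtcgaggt
Lss (chr10:76531485-76531604, plus strand): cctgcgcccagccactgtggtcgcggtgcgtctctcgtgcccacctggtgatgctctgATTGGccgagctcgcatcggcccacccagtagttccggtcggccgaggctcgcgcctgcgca
Insig1 (chr5:28071292-28071411, plus strand): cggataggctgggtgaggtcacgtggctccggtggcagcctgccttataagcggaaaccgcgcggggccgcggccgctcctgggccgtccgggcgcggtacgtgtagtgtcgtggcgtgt
Srebf2 (chr15:82147089-82147268, plus strand): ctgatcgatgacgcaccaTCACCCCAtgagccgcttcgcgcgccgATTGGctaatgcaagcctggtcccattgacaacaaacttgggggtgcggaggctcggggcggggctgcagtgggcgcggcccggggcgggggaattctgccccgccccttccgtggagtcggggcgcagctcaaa

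In the printed stretches Cyp51 and Lss hold 1 CCAAT box each, Idi1 and Hsd17b7 hold 2 each, and the box of Insig1 lies further upstream than the stretch shown. In Srebf2 the short element starts 162 bases and the CCAAT box 135 bases before the start. These matches describe the letters of the windows only.

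Between leukemia 92 and leukemia 1, none of the 29 genes was called by edgeR in either direction, against 1.82% of the 14979 genes tested called higher and 1.27% called lower, and DESeq2 called none either. At an unadjusted p under 0.05 none was higher and 1 was lower, Scd1, against 12.2% and 12.9% of all genes. Scd1 stood at 124 and 115 CPM in leukemia 92 and at 269 and 155 CPM in leukemia 1 (log2 change -0.82, SE 0.28, edgeR adjusted p = 0.168). The median log2 change of the 29 genes was -0.24, against -0.08 for all genes, and 23 of the 29 were below 0. The median SE of these changes was 0.36 over the 29 genes and 0.30 over all genes tested.

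Which replicate stood for leukemia 1 set the direction for many of the 29 genes, though not for all. Without replicate 1 of leukemia 1, edgeR called 11 of the 29 genes higher in leukemia 92, against 24.5% of all genes, and 5 lower, against 26%. Without replicate 2 of leukemia 1 it called 1 higher, Tm7sf2, against 25.2% of all genes, and 17 lower, against 27.3%. In both fits the lone leukemia 1 library is assumed to vary like the other groups. Cyp51 had a log2 change of -1.37 with both libraries (SE 0.80, edgeR adjusted p = 0.351), 0.43 without replicate 1 (edgeR adjusted p = 0.025) and -2.14 without replicate 2, within a range of 1.5e-05 to 0.719 over 12 alternatives. Stard4 had one of -0.22 with both (SE 0.54, edgeR adjusted p = 0.831), 0.88 without replicate 1 (edgeR adjusted p = 1.5e-04) and -0.83 without replicate 2, within a range of 8.1e-05 to 0.967. In all, 15 of the 29 genes changed sign without replicate 1 and 3 without replicate 2.

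Each leukemia was also set against pro-B cells in the fit of 3 groups, and these comparisons share the pro-B libraries. In leukemia 92, edgeR called Fdps, Insig2 and Scd1 higher, against 14.7% of all genes, and Abca1 and Abcg1 lower, against 16.7%. In leukemia 1, it called Insig2 and Scd1 higher, against 9.55%, and none lower, against 10.7%, with 2 lower before adjustment at p under 0.05, against 18.5%. Scd1 had log2 changes of 1.5 in leukemia 92 (SE 0.29, edgeR adjusted p = 0.020) and 2.32 in leukemia 1 (SE 0.30, edgeR adjusted p = 0.012). Insig2 had log2 changes of 0.55 in leukemia 92 (SE 0.15, edgeR adjusted p = 0.050) and 0.72 in leukemia 1 (SE 0.15, edgeR adjusted p = 0.035). Fdps had log2 changes of 1.19 in leukemia 92 (SE 0.26, edgeR adjusted p = 0.029) and 0.78 in leukemia 1 (SE 0.26, edgeR adjusted p = 0.102). For Abca1 they were -2.58 in leukemia 92 (SE 0.70, edgeR adjusted p = 0.048) and -1.66 in leukemia 1 (SE 0.67, edgeR adjusted p = 0.149), and for Abcg1 -2.69 (SE 0.47, edgeR adjusted p = 0.016) and -1.59 (SE 0.45, edgeR adjusted p = 0.069). Elovl6 was called in neither, at -1.14 in leukemia 92 (SE 0.33, edgeR adjusted p = 0.056) and -0.92 in leukemia 1 (SE 0.33, edgeR adjusted p = 0.115). Nor was Stard4, at 0.49 in leukemia 92 (SE 0.55, edgeR adjusted p = 0.538) and 0.71 in leukemia 1 (SE 0.55, edgeR adjusted p = 0.404). The difference between the leukemias did not pass for any of these genes.

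The surrounding lipid genes were read from a list of 89 further genes found in the table, of which 79 were tested between leukemia and pro-B cells. Of these, 10 rose and 8 fell, against 9.54% and 10.7% of all genes, and 61 did not pass, with a median log2 change of 0.11. Among 8 further sterol synthesis genes 2 rose and none fell. Ggps1, which makes geranylgeranyl diphosphate, stood at 37.6 and 34.9 CPM in leukemia 92, at 66.5 and 23.5 CPM in leukemia 1, and at 25.1 and 25.0 CPM in pro-B cells (log2 change 0.68, SE 0.14, edgeR adjusted p = 0.045). Replicate 2 of leukemia 1 was below both pro-B libraries and the other 3 leukemia libraries were above them. Ggps1 was not called without either leukemia 1 library or without replicate 1 of leukemia 92, with changes of 0.28, 1.02 and 0.65, nor with no filter on low counts (0.70) or in the fit of 6 libraries as 3 groups (0.69).

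Of 13 tested genes that store, free and take up cholesterol, 1 rose and 3 fell, against 9.54% and 10.7% of all genes. Soat1, which esterifies cholesterol for storage, stood at 144 and 139.9 CPM in leukemia 92, at 89.0 and 98.6 CPM in leukemia 1, and at 19.6 and 18.5 CPM in pro-B cells (log2 change 2.65, SE 0.28, edgeR adjusted p = 0.016). Nceh1, which hydrolyses cholesterol esters, stood at 11.6 and 9.06 CPM in leukemia 92, at 24.4 and 16.6 CPM in leukemia 1, and at 69.4 and 77.3 CPM in pro-B cells (log2 change -2.26, SE 0.35, edgeR adjusted p = 0.027). The groups of both genes were far apart, with the esterifying enzyme higher and the hydrolase lower in all 4 leukemia libraries. Npc1, which lets cholesterol out of lysosomes, stood at 64.9 and 62.0 CPM in leukemia 92, at 43.5 and 41.9 CPM in leukemia 1, and at 139.9 and 164 CPM in pro-B cells (log2 change -1.502, SE 0.27, edgeR adjusted p = 0.036). Lrp8, a receptor of the LDL receptor family, stood at 31.4 and 32.3 CPM in leukemia 92, at 29.6 and 20.6 CPM in leukemia 1, and at 119.98 and 129 CPM in pro-B cells (log2 change -2.12, SE 0.20, edgeR adjusted p = 0.015). These 4 genes kept their calls when any leukemia library was left out and lost them without either pro-B library.

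Among 10 tested genes of the SREBP machinery, Rnf145, a ubiquitin ligase of the endoplasmic reticulum that responds to sterols, rose (log2 change 1.31, SE 0.20, edgeR adjusted p = 0.027), and none fell. It was not called without replicate 1 of leukemia 1 (log2 change 1.13). Of the LXR receptors, Nr1h2 stood at 90.5 and 99.6 CPM in leukemia 92, at 55.5 and 91.3 CPM in leukemia 1, and at 66.7 and 63.4 CPM in pro-B cells (log2 change 0.39, SE 0.19, edgeR adjusted p = 0.215). Nr1h3 was at 0.740 and 0.654 CPM in leukemia 92, at 0.325 and 5.17 CPM in leukemia 1, and at 0.481 and 0.741 CPM in pro-B cells, highest in the library with the granulocyte markers (edgeR adjusted p = 0.247). Neither receptor was called, and of 9 tested LXR and efflux genes beside the pumps 1 rose and none fell. Of all genes, 9.54% were called higher and 10.7% lower. Apoe, the apolipoprotein and LXR target, rose by a log2 change of 1.56 (SE 0.34, edgeR adjusted p = 0.049), with 45.1 CPM in replicate 2 of leukemia 1, 6.74 CPM in replicate 1, 14.4 and 17.2 CPM in leukemia 92, and 6.29 and 8.11 CPM in pro-B cells. Its call was lost without replicate 2 of leukemia 1, where the log2 change was 0.66, and also at 2.09 without replicate 1 of leukemia 1 and 1.51 without replicate 2 of leukemia 92, and at 1.49 in the fit of 6 libraries as 3 groups.

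Of 26 further fatty acid and glycerolipid genes tested, 4 rose and 4 fell, against 9.54% and 10.7% of all genes. Gpam, which starts glycerolipid synthesis, had the largest fall, at 24.2 and 24.8 CPM in leukemia 92, at 27.7 and 21.9 CPM in leukemia 1, and at 302 and 274 CPM in pro-B cells (log2 change -3.54, SE 0.14, edgeR adjusted p = 0.006). All leukemia libraries were close together and 11.7-fold below pro-B cells. Elovl1, which lengthens saturated very long chains, rose by a log2 change of 0.98 (SE 0.11, edgeR adjusted p = 0.017). The reductases Hsd17b12 and Tecr of the elongation cycle rose by changes of 1.10 (SE 0.13, edgeR adjusted p = 0.018) and 0.86 (SE 0.14, edgeR adjusted p = 0.029). Acsl4, which activates polyunsaturated fatty acids, rose by 0.67 (SE 0.12, edgeR adjusted p = 0.033). Acacb, the mitochondrial carboxylase, Acsl1, an acyl-CoA synthetase, and Fads3, of the desaturase family, fell by 2.24, 0.70 and 1.16 on the log2 scale, with edgeR adjusted p = 0.048, 0.034 and 0.024.

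The calls of Gpam, Elovl1 and Hsd17b12 held when any leukemia library was left out. Tecr was not called without replicate 2 of leukemia 1 (log2 change 0.58), Acsl1 without replicate 1 (-0.60), and Acsl4 and Fads3 without either, at 0.35 and -1.73 without replicate 1 and 0.95 and -0.73 without replicate 2. Tecr, Acsl4 and Fads3 were not called in the fit of 6 libraries as 3 groups either, at 0.83, 0.67 and -1.15. Acacb, at 0.370 to 0.894 CPM in leukemia and 3.04 and 2.69 CPM in pro-B cells, lost its call without replicate 1 of leukemia 1 (-2.33), without replicate 2 of leukemia 1 (-2.19) or without replicate 2 of leukemia 92 (-2.24).

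Of 13 tested fatty acid oxidation genes 1 rose and 1 fell, against 9.54% and 10.7% of all genes. Slc25a20, the carnitine carrier of mitochondria, had a log2 change of 0.89 (SE 0.19, edgeR adjusted p = 0.048), and was not called without either leukemia 1 replicate or without replicate 2 of leukemia 92, at 1.002, 0.78 and 0.81. Eci1, an isomerase for unsaturated chains, had one of -1.77 (SE 0.36, edgeR adjusted p = 0.044) and was not called without replicate 2 of leukemia 1 (-2.06). The factors Mlx and Mlxipl, which drive lipogenic genes in response to glucose, did not pass. Mlx had a log2 change of 0.11 (SE 0.12, edgeR adjusted p = 0.560), and Mlxipl was at 4.19 and 4.44 CPM in leukemia 92, against 0.488 and 0.111 CPM in leukemia 1 and 0.111 and 0 CPM in pro-B cells (edgeR adjusted p = 0.136). Ppara, which drives oxidation genes, had at most 0.111 CPM in any library and was not tested.

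**Figure D5:**
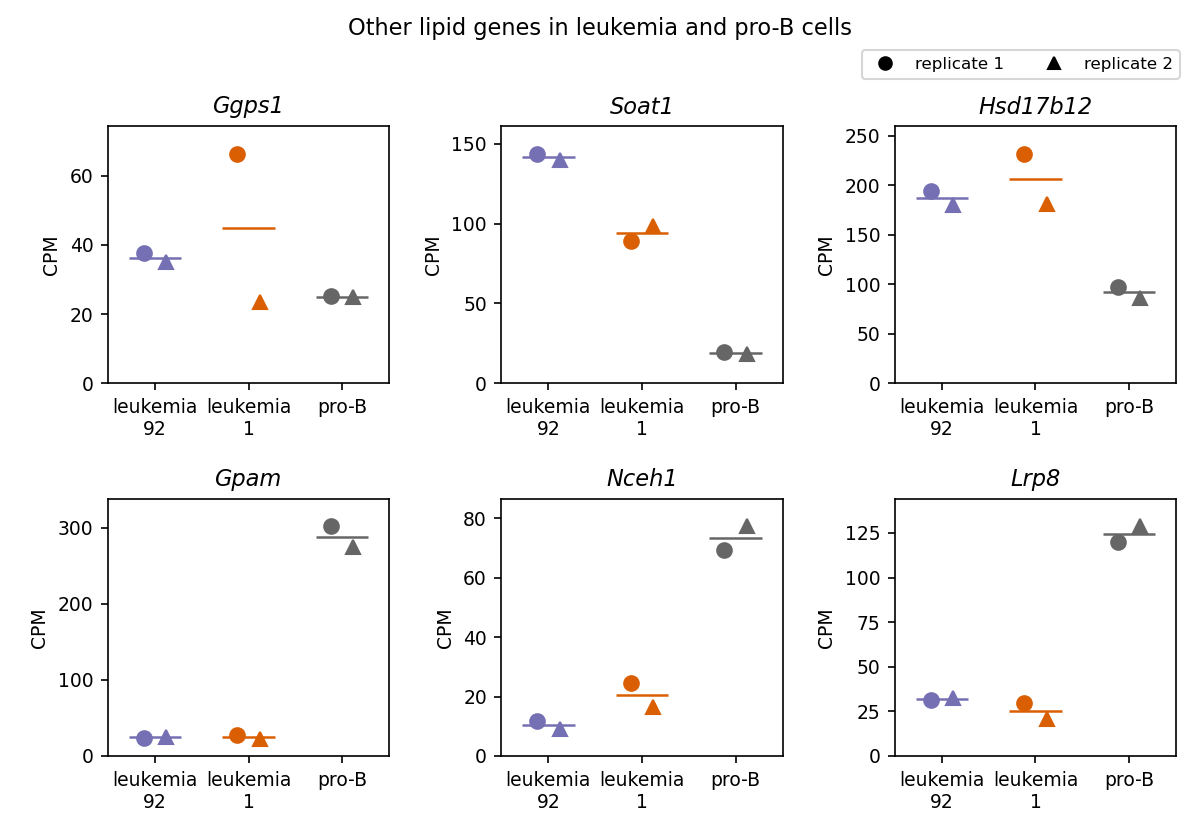
CPM of 6 other lipid genes in leukemia 92, leukemia 1 and pro-B cells (x axis), with circles for replicate 1, triangles for replicate 2 and lines for group means. Soat1, Hsd17b12, Gpam, Nceh1 and Lrp8 have all 4 leukemia libraries to one side of both pro-B libraries, while Ggps1 is at 66.5 CPM in replicate 1 of leukemia 1 and at 23.5 CPM in replicate 2.

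Markers of a lipid-storing cell were read beside these genes. Of 8 adipocyte markers, Adipoq, Plin1, Lep and Cfd were under 1 CPM in all leukemia libraries, and the list summed to 405 and 343 CPM in leukemia 92, 66.8 and 65.1 CPM in leukemia 1, and 2.04 and 4.09 CPM in pro-B cells. That sum was mostly Lpl and Pparg, the 2 markers called higher. Beside the shares of all genes called, 9.54% higher and 10.7% lower, 4 of 10 markers for monocytes and macrophages were higher. Lower were 7 of 9 erythroid, 3 of 7 T and NK, all 6 plasmacytoid dendritic and 4 of 11 cell cycle markers. The plasmacytoid dendritic markers summed to 345 and 345 CPM in leukemia 92, 477 and 294 CPM in leukemia 1, and 2984 and 3375 CPM in pro-B cells. For T and NK markers the sums were 4.23 and 3.55 CPM in leukemia 92, 2.80 and 38.8 CPM in leukemia 1, and 296 and 280 CPM in pro-B cells. Of 6 stromal and endothelial markers Pecam1 was higher and Cdh5 and Kdr were lower, and the list summed to 556 and 551 CPM in leukemia 92, 391 and 330 CPM in leukemia 1, and 204 and 209 CPM in pro-B cells. Their part in the lipid gene values was not tested.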

How the data were processed

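RNA of 6 libraries was measured: 2 of leukemia 92, 2 of leukemia 1 and 2 of wildtype pro-B cells. The authors deposited counts, whole numbers of reads per gene and library, with STAR 2.4, HTSeq 0.6.1 and DESeq2 listed as tools and mm9 as build, with no role stated, per the submitters' processing notes. The gene annotation and whether strand was used are not given in the sources, so genes were taken by symbol, and overlapping genes cannot be told apart by strand. Entries that name no gene held 33.97% to 39.56% of each library and were left out. Depth was 22153444 to 27444759 gene counts, at which 3 counts are 0.1108 to 0.1401 CPM, which covers counting error only.

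Leukemia was compared with pro-B cells on counts summed over the libraries of each leukemia (2 sums against 2 pro-B libraries), because the labels put 2 libraries under 1 leukemia number. Leukemia 92 and leukemia 1 were compared with each other, and each with pro-B cells, in a fit of 6 libraries as 3 groups. edgeR 4.0.16 (R 4.3.3) was used with TMM scaling, filterByExpr at a minimum count of 10, a robust quasi-likelihood test, and Benjamini-Hochberg adjustment over all genes tested at 0.05. SE is the log2 change over the square root of F. Alternatives were DESeq2 1.42.0, its size factors in edgeR, no filter, each library or leukemia left out, the fit of 3 groups and a replicate block. The fits were tested on simulated data.

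The 30 genes and the further lipid and marker lists were chosen with earlier results of these data known. All 30 were to be named, and of the further lipid genes those called, at most 4 per list and direction by smallest p, with 5 transcription factors whether called or not. Shares of 50-base words came from GENCODE M21 transcripts (GRCm38) and promoters from RefSeq (GRCm38.p6), used for sequence only, as the counts rest on mm9. A few further genes of these lists are not reported here by name.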

Additional observations from a re-analysis of the deposited data

Results flagged for a closer look

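A gene is listed here when 1 of its 4 leukemia libraries stood apart from the other 3, that is when the gap to the nearest library, as a share of the range of CPM, was above Dixon's 95% critical value for 4 samples. By chance about 1 in 20 groups is listed, and 15% of all genes tested were. Replicate 1 of leukemia 1 was the high library for 7 genes: the squalene synthase Fdft1 (gap 0.845 of the range), the epoxidase Sqle (0.900), the demethylase Cyp51 (0.902), Nsdhl (0.861), Hsd17b7 (0.832), Insig1 (0.934) and Insig2 (0.889). Replicate 2 of leukemia 1 was the high library for Scap (0.920) and Abca1 (0.849). The 4 libraries come from 2 leukemias and are not replicates of 1 group, so these gaps include any difference between leukemias. Insig2 stood out by a small amount, at 30.1 CPM against 24.3 to 25.0 CPM in the other leukemia libraries.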

How the results depend on the processing

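For leukemia against pro-B cells, the 3 genes of the list called higher and 3 called lower were as many with DESeq2's size factors and with no filter. DESeq2 called 2335 genes of the table and 8 of the list higher, and 23 and 15 of the further lipid genes higher and lower. The fit of 3 groups called 2605 genes lower. Without both libraries of leukemia 1, 4893 genes were higher and 5241 lower (13 and 8 of the list), and without both of leukemia 92, 4659 and 4676 (16 and 6), where libraries of 1 leukemia stand as replicates. Leaving out 1 library gave 0 to 1544 genes higher and 0 to 1725 lower, and 0 to 3 of the list in each direction. Signs turned for Acat2 (0.039) and Dhcr7 (0.058) without both leukemia 92 libraries, and for Insig1 in the fit of 3 groups (-0.10), with a replicate block (-0.26) and without both leukemia 1 libraries (-0.88). With 1 library left out, log2 changes ran over both signs for Acat2 (-0.52 to 0.16), Idi1 (-0.14 to 1.22), Nsdhl (-0.46 to 0.020), Dhcr7 (-0.21 to 0.15), Insig1 (-0.78 to 0.65), Acly (-0.14 to 0.10), Fasn (-0.20 to 0.34) and Scd2 (-0.66 to 0.00099).

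For leukemia 92 against leukemia 1, DESeq2 called 1322 genes higher and 1345 lower, none of the list. edgeR called 0 higher and 0 lower in the leukemia libraries alone (1284 and 1082 before adjustment at p under 0.05) and with a replicate block (1583 and 1459). Leaving out 1 library gave 0 to 3909 higher and 0 to 4224 lower, with 0 to 11 and 0 to 17 of the list. Mvd was at 0.00047 with DESeq2's size factors and at 0.0011 with DESeq2. With 1 library left out, log2 changes ran over both signs for Acat2 (-1.04 to 0.22), Mvd (-0.22 to 0.24), Idi1 (-1.66 to 0.80), Fdft1 (-1.29 to 0.28), Sqle (-1.71 to 0.092), Lss (-0.62 to 1.54), Cyp51 (-2.14 to 0.43), Nsdhl (-0.82 to 0.11), Hsd17b7 (-1.57 to 0.59), Dhcr7 (-0.60 to 0.12), Srebf2 (-0.064 to 0.67), Stard4 (-0.83 to 0.88), Acly (-0.26 to 0.28), Acaca (-0.67 to 0.39), Fasn (-0.53 to 0.62), Scd2 (-0.73 to 0.70), Elovl6 (-0.58 to 0.29) and Abca1 (-1.59 to 0.46).

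Over all genes past the low-count filter, libraries of the same number did not deviate together. The correlations were -0.161 between the leukemias, and 0.0612 and -0.0336 of leukemia 1 and leukemia 92 with pro-B cells. For the 29 genes, the log2 ratios of replicate 1 to replicate 2 mostly had the same sign in both leukemias. Their medians were 0.79 in leukemia 1 and 0.18 in leukemia 92. Whether the numbers pair the samples was not tested for these genes. With the replicate block, 1448 genes were higher and 1925 lower in leukemia than in pro-B cells, with 2 of the list in each direction. Among the calls it ended were those of Stard4, Abca1, Tecr, Acsl4, Fads3, Acsl1, Apoe and Ggps1 (edgeR adjusted p = 0.053 for Acsl1 and 0.063 for Abca1, up to 0.440 for Stard4). A crossed block between the leukemias, chosen after seeing the data, called 0 genes higher and 0 lower (1590 and 1484 before adjustment). The cause of lost or turned calls was not tested.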
